A study of Mus musculus with 12 samples.

Results

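The 10 genes described here carry glucose into the cell (Slc2a1, Slc2a3), carry lactate across the cell membrane (Slc16a1, Slc16a3), or act in glycolysis and at its exit (Hk2, Pfkp, Pfkl, Aldoc, Ldha, Pdk1). They were found by gene symbol among 22180 genes measured on the arrays, and a gene with more than 1 probe set was read from the probe set with the highest mean over the 12 arrays. Total RNA came from mouse embryonic fibroblasts, cultured connective-tissue cells of the embryo, kept in DMEM with 10% FBS, and was hybridised to 1-colour Affymetrix arrays. The cells were wild type (WT) or Gdap1-null (KO). The Gdap1 protein sits in the outer membrane of mitochondria and acts in their fission. Each genotype was taken before reprogramming (day 0) and at day 4, which makes 4 groups of 3 arrays. The day 4 cells had received Oct4, Sox2, Klf4 and cMyc, the factors used to make induced pluripotent stem cells from fibroblasts. The labels describe an overnight transduction, mock or with the factors, followed by 4 days of growth, and do not say whether the day 0 cells were mock-transduced. The vector, the null allele, the number of embryos and any batch are not stated in the labels used here, which also do not say that the arrays of a group came from separate cultures. The p-values therefore measure only the spread between these samples, and batch and group cannot be told apart.

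In glycolysis, glucose enters through facilitative transporters, hexokinase traps it as glucose 6-phosphate, and phosphofructokinase commits it to the pathway. Aldolase then splits the sugar, and the later steps end in pyruvate. Lactate dehydrogenase can turn pyruvate into lactate, which leaves the cell with a proton through monocarboxylate transporters. Pyruvate dehydrogenase kinases switch off pyruvate dehydrogenase, the enzyme that uses pyruvate inside mitochondria. Several of these genes are textbook targets of the hypoxia-inducible factors, which bind a core of ACGTG or GCGTG in DNA, and of MYC, which binds CACGTG. Fibroblasts on the way to pluripotency are known for a shift toward glycolysis.

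Levels are the deposited log2 values of each array, so a difference of 1 is a 2-fold change, and the level of one gene says nothing against that of another. Changes were tested with limma in 1 model of all 12 arrays, with p-values adjusted by Benjamini-Hochberg over the 22180 genes and a threshold of 0.05. Errors of changes are standard errors (SE, n = 3 arrays per group). In bulk RNA, fewer cells of a type and less RNA per cell cannot be told apart.

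The 12 fibroblast markers examined all lay above the median gene level of 5.28, and 0 of 10 pluripotency markers did. Of 8 endothelial markers 2 lay above it, as did 5 of 9 epithelial markers and 3 of 8 skeletal muscle markers. As levels of different genes cannot be set against each other, counts against the median gene do not show which cell types were present. The mean level of 11 macrophage and blood markers was 5.88 to 5.91 on the WT day 0 arrays and 4.82 to 4.96 on the KO day 0 arrays. At day 4 it was 6.46, 5.77 and 5.69 on the WT arrays and 4.87 to 4.94 on the KO arrays. At each day 7 of these 11 were lower in KO cells, among them Cd68 (-1.27 and -1.63) and Tyrobp (-1.99 and -1.95), and 5 of the 11 lay above the median gene level. Among all genes 3.12% were lower in KO cells at day 0 and 12.4% at day 4. The part of macrophage and blood cells in the differences between KO and WT given here was not tested. Gdap1 lay at the 14.1 percentile of all genes and gave 3.04 to 3.30 in WT day 0 and 2.97 to 3.28 in KO day 0 arrays, so near the floor that it checks nothing about the genotype. By day 4 Klf4, a transduced factor, rose in both genotypes (2.94 and 3.28), and Myc, another, fell in both. Pou5f1 (Oct4) rose in KO cells (0.38) and missed the threshold in WT cells (0.10), and Sox2 passed in neither (0.19 and -0.10).

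One array of the WT day 4 group stood apart for these genes. The mean Pearson correlation across genes with the rest of its group was 0.987 for WT day 4 array 1, against 0.991 to 0.997 for the others. All 10 genes were higher on it than on WT day 4 arrays 2 and 3, by 0.58 (Slc16a1) to 2.56 (Slc16a3) and a median of 1.26, as were 34.9% of all genes. A gap above 0.5 was seen for 10 of the 10 genes and for 3.32% of all genes. On array 1 all 10 lay above every WT day 0 array, as did 34.6% of all genes. On arrays 2 and 3, 6 of the 10 lay below every WT day 0 array, as did 25.2% of all genes, and 3 lay above every one (Slc2a3, Slc16a1 and Aldoc), as did 24.1%. The median SD of the 10 genes within a group was 0.76 in WT day 4, against 0.05 in WT day 0, 0.04 in KO day 0 and 0.12 in KO day 4. For all genes the median SD was 0.13 in WT day 4 and 0.09 to 0.12 in the other groups. The mean of the macrophage and blood markers was also highest on array 1 of the group (6.46 against 5.77 and 5.69), and the part of those cells in the gap was not tested. Results for the 10 genes that rest on this group are given with and without array 1, and for other genes where a call or a count given here moved by over 1.5 times.

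**Figure D1:**
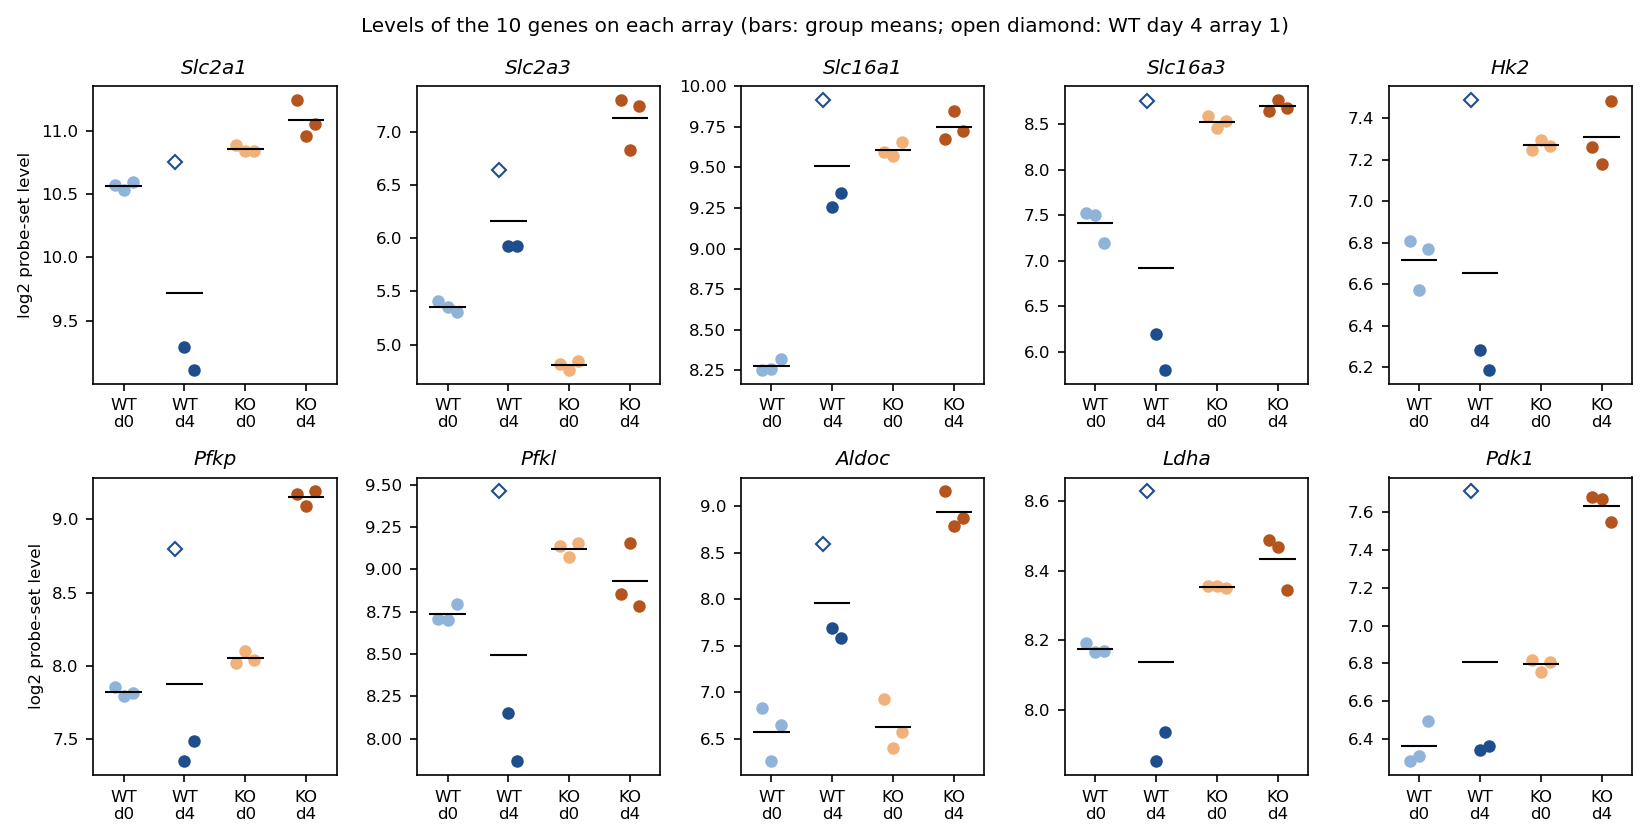
The log2 probe-set level of each of the 10 genes is plotted by array in the 4 groups (WT and KO, day 0 and day 4), with bars at group means and an open diamond for WT day 4 array 1. That array lies above the other 2 WT day 4 arrays in every panel, by 0.58 to 2.56. In the other groups the 3 arrays span up to 0.57 (Aldoc in WT day 0).

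At day 4, 6 of the 10 genes were higher in KO than in WT cells: Slc2a1, Slc2a3, Slc16a3, Pfkp, Aldoc and Pdk1, by 0.82 to 1.78. None was lower by limma, and none was lower at an unadjusted p under 0.05. Among all genes 8.34% were higher and 12.4% lower in that comparison. The median difference was 0.89 for the 10 genes and 0.00 for all genes. Before reprogramming, 1 of the 10 (Slc16a1) was higher in KO cells and 0 lower, where 2.48% of all genes were higher and 3.12% lower, and the median was 0.34 against -0.00 for all genes. At an unadjusted p under 0.05 a single gene, Slc2a3, was lower at day 0.

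From day 0 to day 4, 3 of the 10 genes rose in WT cells (Slc2a3, Slc16a1, Aldoc) and 0 fell, beside 11.1% of all genes that rose and 11.7% that fell. Slc2a1 alone was lower at an unadjusted p under 0.05. In KO cells 4 rose (Slc2a3, Pfkp, Aldoc, Pdk1) and 0 fell, also at an unadjusted p under 0.05, beside 13.8% and 16.9% of all genes. The median change was 0.01 in WT and 0.20 in KO cells, against -0.01 over all genes in each. The day 4 change differed between the genotypes past the threshold for Slc2a3, which rose more in KO cells, and for Slc16a1, which rose more in WT cells. That is 1 gene in each direction, beside 2.15% of all genes with a larger change in KO cells and 1.81% with a smaller one.

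Leaving out WT day 4 array 1 moved these counts. That array was singled out in part by the levels of these same 10 genes, so its omission lowered the WT day 4 means by construction. The counts and p-values without it are therefore descriptions. Leaving out WT day 4 array 2 or 3 instead gave 3 genes higher in KO cells at day 4 each time. Among all genes 15% and 13.3% were called there in either direction. Without array 1, KO cells at day 4 were higher for all 10 genes, by 0.45 (Slc16a1) to 2.70 (Slc16a3) and a median of 1.24. Among all genes 10.8% were higher and 15.9% lower. In WT cells, 3 genes still rose by day 4 and 6 fell (Slc2a1, Slc16a3, Hk2, Pfkp, Pfkl and Ldha), beside 11.9% and 11.1% of all genes. In KO cells 4 rose, beside 15.6% of all genes that rose and 18.8% that fell. At day 0, where the omitted array enters through the shared estimate of the spread alone, 5 genes were higher in KO cells and 1 lower, beside 4.04% and 4.68%. The day 4 change was larger in KO than in WT cells for 9 genes and smaller for 1, beside 4.34% and 5.31%. Fits to the compared groups alone gave 7 genes higher and 1 lower in KO cells at day 0, beside 5.16% and 5.90% of all genes. At day 4 they gave 1 higher (Slc2a3, adjusted p = 0.0329), beside 3.37% higher and 5.30% lower among all genes.

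**Figure D2:**
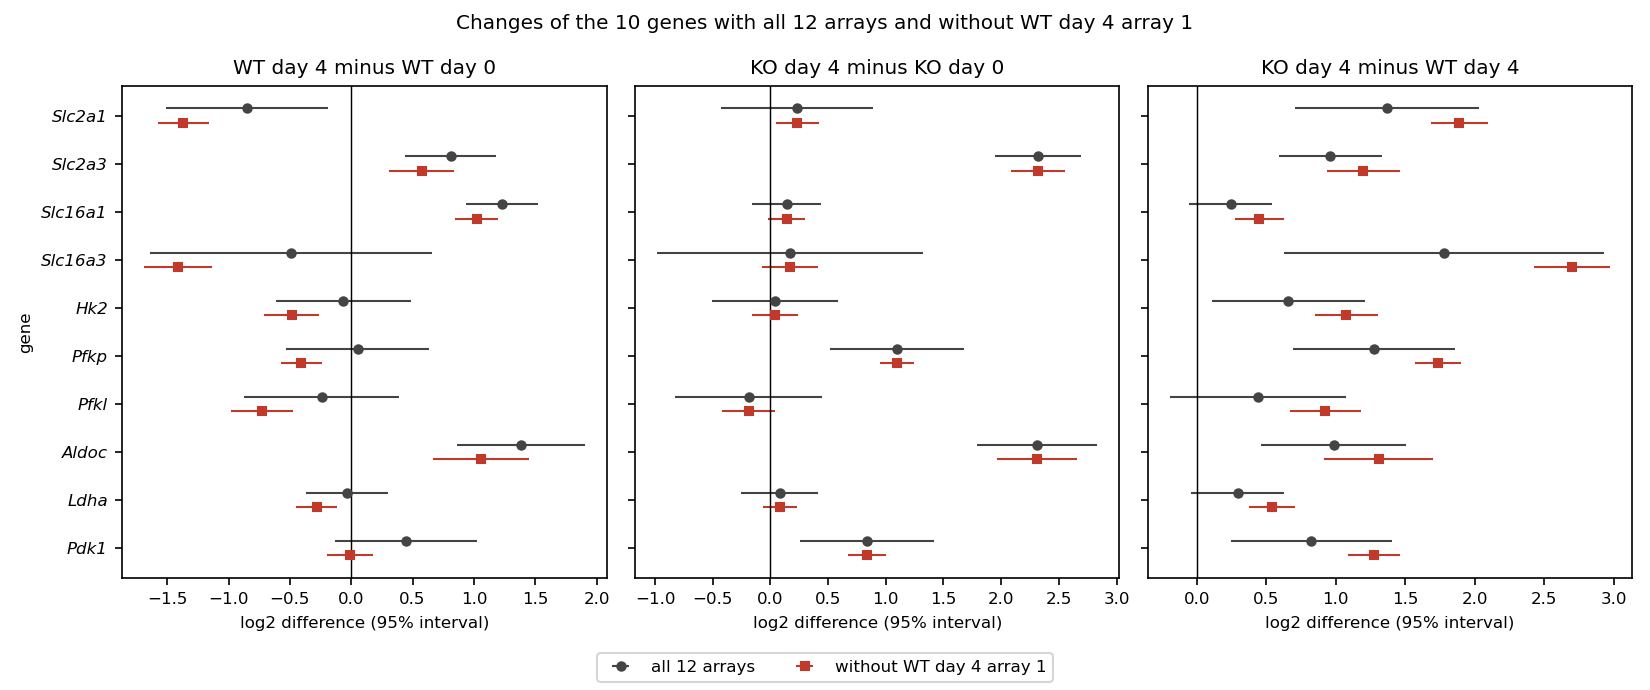
The log2 difference of each of the 10 genes, with its 95% interval, is plotted for day 4 against day 0 in each genotype and for KO against WT at day 4, with all 12 arrays and without WT day 4 array 1. Without it, KO minus WT at day 4 runs from 0.45 to 2.70 with narrower intervals.

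The glucose transporters Slc2a1 and Slc2a3 ordered the 4 groups differently. Slc2a1, the main glucose transporter of many growing cells, gave 10.58, 10.54 and 10.59 on the WT day 0 arrays and 10.76, 9.29 and 9.11 on the WT day 4 arrays. The KO arrays read 10.89, 10.84 and 10.84 at day 0 and 11.25, 10.96 and 11.06 at day 4. Every KO day 4 array lay above every WT array, and the WT day 4 arrays reached from below to above those of WT day 0. At day 4 it was higher in KO than in WT cells by 1.37 ± 0.30 (2.58-fold, adjusted p = 0.0074), and by 1.89 (adjusted p = 1.28e-07) without WT day 4 array 1. A fit to the day 4 groups alone ended that call (adjusted p = 0.0633). The Slc2a1 change by day 4 was -0.85 ± 0.30 in WT cells (adjusted p = 0.0641) and 0.23 ± 0.30 in KO cells (adjusted p = 0.619). With array 1 left out, Slc2a1 fell by 1.37 in WT cells (adjusted p = 1.22e-06). The KO change minus the WT change was 1.08 ± 0.43 with all arrays (adjusted p = 0.187) and 1.60 without array 1 (adjusted p = 4.66e-05). A dimmer second probe set of Slc2a1, with a mean of 5.03, passed in no comparison, the one at day 4 included (0.17 and adjusted p = 0.424).

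Slc2a3, the high-affinity transporter best known from neurons and early embryos, gave 5.41, 5.35 and 5.31 in WT day 0 and 6.64, 5.93 and 5.93 in WT day 4. The KO values were 4.82, 4.76 and 4.85 at day 0 and 7.31, 6.83 and 7.25 at day 4. The 4 groups did not overlap: KO day 0 was lowest, then WT day 0, WT day 4 and KO day 4. Slc2a3 rose by 0.81 ± 0.17 in WT cells (1.75-fold, adjusted p = 0.00369) and by 2.32 ± 0.17 in KO cells (4.99-fold, adjusted p = 1.26e-06). Leaving out WT day 4 array 1 gave a rise of 0.57 in WT cells (adjusted p = 0.00398). The rises differed by 1.51 ± 0.24 (adjusted p = 0.00572), or by 1.75 without WT day 4 array 1. In KO cells it was higher than in WT cells at day 4 by 0.96 ± 0.17 (1.95-fold, adjusted p = 0.00202), and by 1.20 without that array. At day 0 the difference was -0.55 ± 0.17 (adjusted p = 0.0938), and Slc2a3 was lower in KO cells without WT day 4 array 1 (adjusted p = 0.00585) and in a fit to the day 0 groups alone (adjusted p = 0.000651).

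The lactate transporters were read next. Slc16a1 was higher in KO cells at day 0, and Slc16a3 did not pass there with all arrays. The KO day 0 arrays lay wholly above the WT day 0 arrays for both, for 8 of the 10 genes and for 13.1% of all genes. Slc16a1 encodes MCT1, a carrier of lactate and pyruvate in either direction. It gave 8.25, 8.26 and 8.32 in WT day 0 and 9.92, 9.26 and 9.34 in WT day 4. Its KO values were 9.60, 9.57 and 9.66 at day 0 and 9.67, 9.85 and 9.73 at day 4. WT day 0 was the low group, and the WT day 4 arrays reached on both sides of the KO day 0 arrays. Slc16a1 was higher in KO cells at day 0 by 1.33 ± 0.14 (2.52-fold, adjusted p = 9.82e-05). It rose by 1.23 ± 0.14 in WT cells (2.34-fold, adjusted p = 3.32e-05), or by 1.02 without WT day 4 array 1 (adjusted p = 2.98e-06), and its change in KO cells was 0.14 ± 0.14 (adjusted p = 0.494). The KO change minus the WT change was -1.09 ± 0.19 (adjusted p = 0.00973), and -0.88 when that array was left out (adjusted p = 0.000635). At day 4 KO minus WT was 0.24 ± 0.14 (adjusted p = 0.241), and Slc16a1 passed there without WT day 4 array 1 (0.45, adjusted p = 0.00138).

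Slc16a3 encodes MCT4, the lactate exporter of strongly glycolytic cells. It gave 7.52, 7.50 and 7.20 in WT day 0 and 8.75, 6.19 and 5.80 in WT day 4. The KO arrays read 8.59, 8.46 and 8.53 at day 0 and 8.64, 8.77 and 8.67 at day 4. All KO arrays lay between 8.46 and 8.77, and WT day 4 array 1 lay among the KO day 4 arrays while the other WT day 4 arrays were the lowest of all. KO minus WT was 1.78 ± 0.53 at day 4 (3.44-fold, adjusted p = 0.0314) and 1.12 ± 0.53 at day 0 (adjusted p = 0.317). The first was 2.70 without WT day 4 array 1 (adjusted p = 6.84e-08), and Slc16a3 then also passed at day 0 (adjusted p = 3.64e-05). When WT day 4 array 2 or 3 was left out, the day 4 difference was 1.42 or 1.22 and did not pass (adjusted p = 0.12 and 0.135). The omission of KO day 4 array 1, 2 or 3 also ended the call, with adjusted p-values of 0.0705, 0.0736 and 0.0708. Its change by day 4 was -0.49 ± 0.53 in WT cells (adjusted p = 0.596) and 0.17 ± 0.53 in KO cells (adjusted p = 0.852). In the fit without WT day 4 array 1, Slc16a3 fell by 1.41 in WT cells (adjusted p = 7.46e-06). The KO change minus the WT change was 0.66 ± 0.75 with all arrays (adjusted p = 0.701) and 1.58 without array 1 (adjusted p = 0.000261). A probe set shared by Slc16a3 and Csnk1d, with a mean of 8.83, passed in no comparison.

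The promoter windows of these genes were read for the hypoxia-inducible factor core and the MYC site, because both are textbook regulators of the pathway. RefSeq gave a window of 250 bases before to 50 bases after the start for 9 of the 10 genes (build GRCm38.p6; the most upstream window where there were several). ACGTG, counted on both strands, was in 6 of 9 windows (Slc2a1, Slc16a1, Slc16a3, Hk2, Aldoc and Ldha) and in 19.6% of 27026 windows of the same length. GCGTG was in 7 of 9 and in 32.5% of all windows. CACGTG, which contains ACGTG on each strand, was in 2 of 9 (Slc16a1 and Ldha) and in 7.24% of all. These matches describe letters in the window and show no binding. The 4 windows printed are those of the transporters matched and of Ldha, which had the most ACGTG matches, 5, and capitals mark ACGTG on either strand.
Slc2a1 (chr4:119108495-119108794, plus strand): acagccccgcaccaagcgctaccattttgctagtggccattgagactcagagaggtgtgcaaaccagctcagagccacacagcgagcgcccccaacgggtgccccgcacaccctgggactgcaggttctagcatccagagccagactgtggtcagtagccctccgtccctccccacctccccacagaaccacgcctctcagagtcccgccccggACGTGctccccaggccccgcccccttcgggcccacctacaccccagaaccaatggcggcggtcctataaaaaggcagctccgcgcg
Slc16a1 (chr3:104638414-104638713, plus strand): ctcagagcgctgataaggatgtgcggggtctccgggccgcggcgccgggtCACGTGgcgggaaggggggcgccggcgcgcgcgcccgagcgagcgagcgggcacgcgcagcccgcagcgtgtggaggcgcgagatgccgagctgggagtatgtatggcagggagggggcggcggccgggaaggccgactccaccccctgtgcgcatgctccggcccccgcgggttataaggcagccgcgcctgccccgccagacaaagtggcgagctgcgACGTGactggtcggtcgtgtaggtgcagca
Slc16a3 (chr11:120948817-120949116, plus strand): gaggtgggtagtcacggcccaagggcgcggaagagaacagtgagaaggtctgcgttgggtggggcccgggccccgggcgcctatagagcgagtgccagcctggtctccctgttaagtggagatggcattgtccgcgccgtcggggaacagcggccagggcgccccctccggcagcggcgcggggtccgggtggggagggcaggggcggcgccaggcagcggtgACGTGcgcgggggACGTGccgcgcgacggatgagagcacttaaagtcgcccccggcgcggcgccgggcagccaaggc
Ldha (chr7:46845554-46845853, plus strand): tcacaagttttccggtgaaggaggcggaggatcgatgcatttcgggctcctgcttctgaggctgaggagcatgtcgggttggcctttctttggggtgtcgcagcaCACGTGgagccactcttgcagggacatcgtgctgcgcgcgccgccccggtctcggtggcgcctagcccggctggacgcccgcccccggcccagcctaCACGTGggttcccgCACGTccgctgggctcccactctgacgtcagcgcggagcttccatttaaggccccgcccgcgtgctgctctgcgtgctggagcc
The match in Slc2a1 began at -36 from the start, and those in Slc16a3 at -27 and -14. In Slc16a1 a CACGTG began at -200, and in Ldha at -145 and -48.

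The rest of the group are enzymes. Hk2, the hexokinase that can sit on the mitochondrial outer membrane, gave 6.81, 6.57 and 6.77 in WT day 0, 7.49, 6.28 and 6.19 in WT day 4, 7.25, 7.29 and 7.27 in KO day 0, and 7.26, 7.18 and 7.49 in KO day 4. The KO arrays lay above WT day 0 at both days, with no difference by day among themselves beyond their spread. With all arrays Hk2 passed in none of the comparisons, and KO minus WT was 0.55 ± 0.25 at day 0 (adjusted p = 0.297) and 0.66 ± 0.25 at day 4 (adjusted p = 0.0881). Hk2 without WT day 4 array 1 was higher in KO cells at day 0 (adjusted p = 0.00194) and at day 4 (1.08, adjusted p = 1.72e-05), and it fell by 0.48 in WT cells (adjusted p = 0.00445). Its WT change with all arrays was -0.06 ± 0.25 (adjusted p = 0.906). The KO change minus the WT change was 0.10 ± 0.36 with all arrays (adjusted p = 0.92) and 0.52 without array 1 (adjusted p = 0.0344).

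Pfkp and Pfkl encode the platelet and liver forms of phosphofructokinase, of which Pfkp rose in KO cells and Pfkl passed in no comparison with all arrays. Pfkp gave 7.86, 7.80 and 7.82 in WT day 0, 8.80, 7.35 and 7.49 in WT day 4, 8.02, 8.10 and 8.04 in KO day 0, and 9.18, 9.09 and 9.19 in KO day 4. Its KO day 4 arrays lay above all others. Pfkp rose by 1.10 ± 0.27 in KO cells (2.14-fold, adjusted p = 0.0073), while its change in WT cells was 0.05 ± 0.27 (adjusted p = 0.927). At day 4 it was higher in KO than in WT cells by 1.27 ± 0.27 (2.42-fold, adjusted p = 0.00552), and by 1.74 without WT day 4 array 1 (adjusted p = 6.4e-08). In a fit to the day 4 groups alone Pfkp did not pass (adjusted p = 0.0549). The difference of the day 4 changes was 1.04 ± 0.38 and did not pass (adjusted p = 0.15). Without WT day 4 array 1 it did (adjusted p = 1.94e-05), while Pfkp fell by 0.41 in WT cells (adjusted p = 0.00213).

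Pfkl gave 8.71, 8.70 and 8.79 in WT day 0 and 9.46, 8.15 and 7.86 in WT day 4, then 9.14, 9.07 and 9.15 in KO day 0 and 8.86, 9.16 and 8.78 in KO day 4. It was the single gene of the 10 whose highest group mean was KO day 0, and those arrays overlapped KO day 4. The Pfkl change with all arrays was -0.19 ± 0.29 in KO cells (adjusted p = 0.683) and -0.24 ± 0.29 in WT cells (adjusted p = 0.644). KO minus WT was 0.39 ± 0.29 at day 0 (adjusted p = 0.584) and 0.44 ± 0.29 at day 4 (adjusted p = 0.327). Without WT day 4 array 1 Pfkl was higher in KO cells at day 0 (0.39, adjusted p = 0.0376) and day 4 (0.93, adjusted p = 0.000129), and fell by 0.73 in WT cells (adjusted p = 0.00063). The KO change minus the WT change was 0.05 ± 0.41 with all arrays (adjusted p = 0.967) and 0.54 without array 1 (adjusted p = 0.0496).

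Aldoc, the aldolase best known from brain, gave 6.82, 6.25 and 6.64 in WT day 0 and 8.60, 7.69 and 7.58 in WT day 4. Its KO values were 6.92, 6.40 and 6.57 at day 0 and 9.17, 8.79 and 8.87 at day 4. The day 0 groups overlapped, and each day 4 array lay above every day 0 array. Aldoc rose by 1.38 ± 0.24 in WT cells (2.61-fold, adjusted p = 0.00101) and by 2.31 ± 0.24 in KO cells (4.97-fold, adjusted p = 1.7e-05). In WT cells the rise was 1.06 with array 1 left out (adjusted p = 0.000944). With all arrays the difference of the rises, 0.93 ± 0.34, did not pass (adjusted p = 0.151), and without WT day 4 array 1 it was 1.25 and did. At day 4 Aldoc was higher in KO cells by 0.99 ± 0.24 (1.98-fold, adjusted p = 0.0119), and by 1.31 without array 1. Leaving out WT day 4 array 2 (0.85, adjusted p = 0.0506) or array 3 (0.80, adjusted p = 0.0584) ended that call, as did a fit to the day 4 groups alone (adjusted p = 0.0513).

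Ldha, the lactate dehydrogenase subunit that favours lactate, had the narrowest range of the 10. It gave 8.19, 8.17 and 8.17 in WT day 0, 8.63, 7.85 and 7.94 in WT day 4, 8.36, 8.36 and 8.35 in KO day 0, and 8.49, 8.47 and 8.34 in KO day 4. All 12 arrays spanned 0.78, and WT day 4 held both the lowest and the highest of them. No comparison passed with all arrays, and KO minus WT was 0.29 ± 0.15 at day 4 (adjusted p = 0.207). That difference was 0.54 without WT day 4 array 1 (adjusted p = 0.000269), and Ldha fell by 0.28 in WT cells (adjusted p = 0.0168). Its WT change with all arrays was -0.04 ± 0.15 (adjusted p = 0.913). The KO change minus the WT change was 0.12 ± 0.22 with all arrays (adjusted p = 0.835) and 0.36 without array 1 (adjusted p = 0.0438).

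Pdk1, a kinase that switches off pyruvate dehydrogenase, gave 6.28, 6.31 and 6.49 in WT day 0 and 7.71, 6.34 and 6.36 in WT day 4. The KO arrays read 6.82, 6.75 and 6.81 at day 0 and 7.68, 7.67 and 7.55 at day 4. WT day 4 array 1 lay just above the KO day 4 arrays, and the other WT day 4 arrays lay within those of WT day 0. Pdk1 rose by 0.84 ± 0.27 in KO cells (1.79-fold, adjusted p = 0.0301), and at day 4 it was higher in KO than in WT cells by 0.82 ± 0.27 (1.77-fold, adjusted p = 0.0447). The rise in KO cells did not pass without any 1 of the 6 KO arrays (adjusted p = 0.0568 to 0.0785). That rise passed without WT day 4 array 1 (adjusted p = 5.5e-06) and in a fit to the KO groups alone (adjusted p = 0.000125). The difference at day 4 passed without WT day 4 array 1 (1.28, adjusted p = 1.13e-06) and was lost without any 1 of the other 11 arrays (adjusted p = 0.0594 to 0.18). It did not pass in a fit to the day 4 groups alone (adjusted p = 0.16). The Pdk1 change in WT cells was 0.44 ± 0.27 (adjusted p = 0.29), or -0.01 (adjusted p = 0.964) without array 1. The KO change minus the WT change was 0.39 ± 0.38 with all arrays (adjusted p = 0.636) and 0.85 without array 1 (adjusted p = 0.00116). With p-values adjusted over all probe sets of the table instead of genes, neither Pdk1 call passed (0.0548 for the rise and 0.081 at day 4), nor did Slc16a3 at day 4 (0.0608). A second Pdk1 probe set had a mean of 2.13, under the 25th percentile of gene levels (3.75) and too near the floor to be read. It gave 0.34 for KO against WT at day 4 (limma, adjusted p = 0.0408 over all probe sets).

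Most other enzymes of glycolysis did not pass. Of 16 measured outside the 10, 2 rose and 2 fell by day 4 in WT cells, or 12.5% each. Over all genes 11.1% rose and 11.7% fell. In KO cells 3 rose and 3 fell (18.8% each, beside 13.8% and 16.9% of all genes). Pfkm, the muscle phosphofructokinase, rose in both (0.58 and 0.56), and Adpgk, an ADP-dependent glucokinase, fell in both (-0.34 and -0.37). KO cells at day 4 had 1 higher and 1 lower (6.25% each, beside 8.34% and 12.4% of all genes). The median was 0.15, and 0.00 over all genes. The higher one was Pgk1, phosphoglycerate kinase, with 11.52, 10.62 and 10.53 in WT day 4 and 11.52, 11.66 and 11.57 in KO day 4 (0.69 ± 0.20, adjusted p = 0.0242). The lower one was Hk3, the hexokinase of white blood cells (-0.42 ± 0.09, adjusted p = 0.0044). With all arrays the single call at day 0 was Eno3, lower in KO cells (-0.42), and the day 4 change differed for Hk3 alone (-0.55). Each is 6.25% of the list, beside 3.12% of all genes lower at day 0 and 1.81% with a smaller change. WT day 4 array 1 was also left out, a choice made for the gene lists after the data were seen. Then 8 were higher and 1 lower in KO cells at day 4, beside 10.8% and 15.9% of all genes. In WT cells 6 fell and 1 rose, beside 11.1% and 11.9%. At day 0, 3 were higher and 1 lower in KO cells, beside 4.04% and 4.68%. The day 4 change was larger in KO than in WT cells for 4 and smaller for 1, beside 4.34% and 5.31%.

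Of 19 other glucose and monocarboxylate transporter genes, 2 rose and 4 fell in WT cells (10.5% and 21.1%, beside 11.1% and 11.7% of all genes), and 4 rose and 4 fell in KO cells (21.1% each, beside 13.8% and 16.9%). Slc2a12 rose by 1.35 and 1.61 and Slc2a10 fell (-0.53 and -0.58). At day 4, 2 were higher and 2 lower in KO than in WT cells, or 10.5% each, beside 8.34% and 12.4% of all genes. The higher pair, Emb (0.83 ± 0.20, adjusted p = 0.0107) and Bsg (0.38 ± 0.10, adjusted p = 0.0146), encode embigin and basigin, the partner proteins that bring MCT carriers to the cell surface. Bsg gave 11.64, 11.36 and 11.25 in WT day 4 and 11.88, 11.74 and 11.77 in KO day 4, with no overlap. Slc16a10 and Slc16a6 were the lower pair (-0.35 and -0.30). Without WT day 4 array 1, an omission that ended the call of Slc16a6 (adjusted p = 0.0521), 2 were higher and 1 lower at day 4. Among all genes 10.8% were higher and 15.9% lower. In WT cells 1 then rose and 4 fell, beside 11.9% and 11.1% of all genes.

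At the branch from glycolysis to mitochondria the other kinases were seen beside Pdk1. The list called pyruvate entry here also holds pyruvate dehydrogenase and its regulators. Of its 12 measured genes, 1 rose and 1 fell in WT cells (8.33% each, beside 11.1% and 11.7% of all genes). Without WT day 4 array 1, 4 rose and 2 fell in WT cells, beside 11.9% and 11.1% of all genes. In KO cells 3 rose and 2 fell (25% and 16.7%, beside 13.8% and 16.9%). Pdk2 rose in both (0.85 and 0.76). Pdk4 gave 5.78, 6.08 and 5.72 in WT day 0, 6.35, 5.61 and 5.41 in WT day 4, 5.76, 5.63 and 5.81 in KO day 0, and 7.85, 7.20 and 7.41 in KO day 4. The KO day 4 arrays were the high ones, and Pdk4 was higher there than in WT day 4 by 1.70 ± 0.22 (adjusted p = 0.000272), with a difference of changes of 1.83 ± 0.30 (adjusted p = 0.00703). Mpc1, a subunit of the mitochondrial pyruvate carrier, was lower in KO cells at day 4 by -0.62 ± 0.08 (adjusted p = 0.000353), with 9.97, 9.90 and 9.78 in WT and 9.29, 9.38 and 9.12 in KO arrays. In all 2 of these genes were higher and 2 lower in KO cells at day 4, the others being Pdk3 (0.33) and Pdpr (-0.57). That is 16.7% each, beside 8.34% and 12.4% of all genes.

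Among 4 genes of fructose 2,6-bisphosphate, the activator of phosphofructokinase, Pfkfb3 was higher in KO cells at day 4 (0.87 ± 0.24, adjusted p = 0.023), and Pfkfb4 rose in KO cells (0.29) after being lower than WT at day 0 (-0.33). With WT day 4 array 1 left out, 1 of the 4 was higher and 1 lower in KO cells at day 4, and 2 rose in KO cells. Among all genes 10.8% were then higher and 15.9% lower at day 4, and 15.6% rose in KO cells. Of 18 genes of gluconeogenesis, glycogen and the pentose phosphate pathway, 2 rose and 1 fell in WT cells, and 5 rose and 2 fell in KO cells. That is 11.1% and 5.56% in WT cells, beside 11.1% and 11.7% of all genes. In KO cells it is 27.8% and 11.1%, beside 13.8% and 16.9%. In WT cells 1 rose and 2 fell without WT day 4 array 1, beside 11.9% and 11.1%. At day 4, 3 were higher in KO than in WT cells, or 16.7%, beside 8.34% of all genes. These 3 were Pygl, liver glycogen phosphorylase (1.18), Gbe1, the glycogen branching enzyme (0.64), and Fbp2, a fructose bisphosphatase (0.47). Without WT day 4 array 1, 4 were higher and 1 lower, beside 10.8% and 15.9%.

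Genes induced by hypoxia outside glycolysis showed an array pattern close to that of the 10 genes. The mean of the 10 genes, each centred over the 12 arrays, was -0.49 to -0.39 in WT day 0, 0.64, -0.60 and -0.67 in WT day 4, -0.07 to 0.01 in KO day 0 and 0.64 to 0.72 in KO day 4. For 17 hypoxia-induced genes it was -0.51 to -0.39 in WT day 0, 0.60, -0.75 and -0.73 in WT day 4, 0.09 to 0.11 in KO day 0 and 0.59 to 0.73 in KO day 4. The other glycolytic enzymes gave 0.13, -0.20 and -0.22 in WT day 4 and 0.04 to 0.07 in KO day 4, and the genes of pyruvate entry gave 0.00, 0.06 and 0.05 in WT day 4. WT day 4 array 1 was high for the first lists and not for the last.

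**Figure D3:**
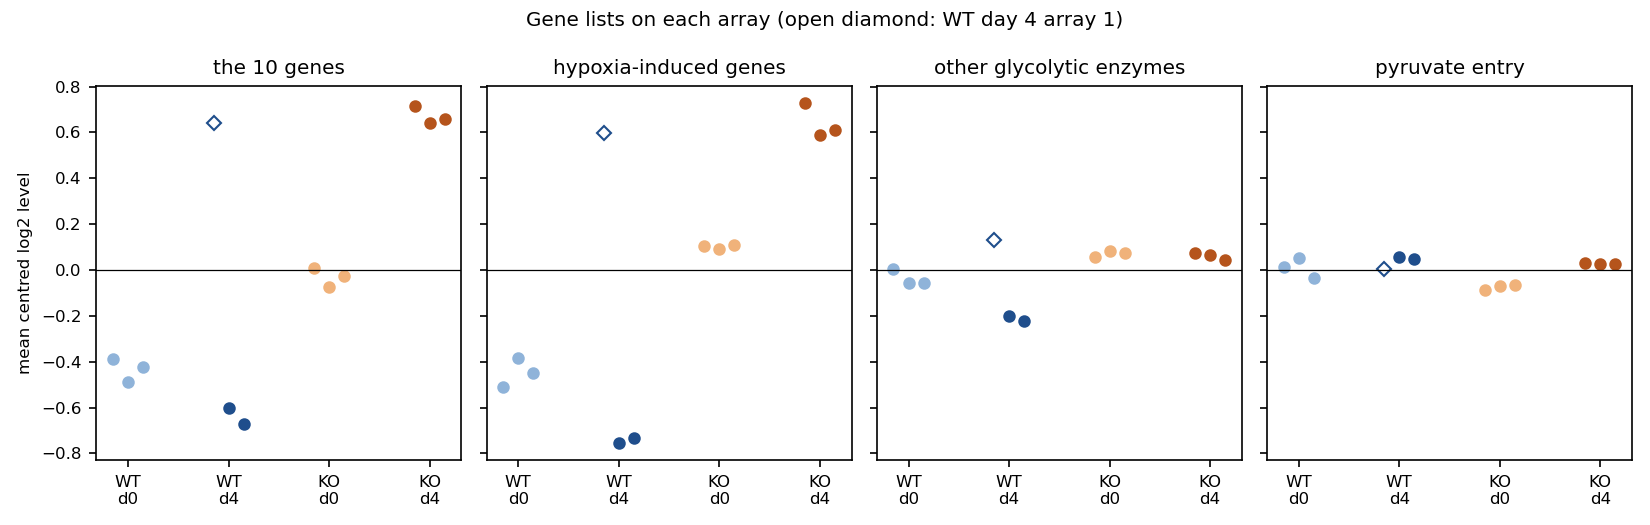
The mean of each gene list, each gene centred over the 12 arrays on the log2 scale, is plotted by array in the 4 groups, with an open diamond for WT day 4 array 1. The 10 genes and the hypoxia-induced genes have that array at 0.64 and 0.60 and the other WT day 4 arrays between -0.75 and -0.60, while the other glycolytic enzymes and the pyruvate entry genes vary less.

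Of the 17 hypoxia-induced genes, 12 were higher in KO than in WT cells at day 4, with a median of 0.81 against 0.00 for all genes. That is 70.6% higher and 0% lower, beside 8.34% and 12.4% of all genes. Vegfa, the main angiogenic growth factor, gave 9.46, 8.28 and 8.27 in WT day 4 and 9.93, 9.88 and 9.71 in KO day 4 (1.17 ± 0.24, adjusted p = 0.00473). The peptide hormone gene Adm (1.33), the collagen hydroxylase subunit P4ha1 (0.81) and the glycoprotein hormone gene Stc2 (0.72) were also higher. Stc2 and Car12, a carbonic anhydrase, were the 2 higher in KO cells at day 0 (0.64 and 1.20). That is 11.8%, beside 2.48% of all genes. By day 4, 4 rose in each genotype, among them Mxi1 (1.24 and 1.05) and Kdm3a (0.57 and 0.62). These are 23.5%, beside 11.1% of all genes in WT and 13.8% in KO cells. Without WT day 4 array 1, 17 of 17 were higher in KO cells at day 4 and 12 at day 0. Among all genes 10.8% and 4.04% were higher. In WT cells 10 then fell and 3 rose, beside 11.1% and 11.9% of all genes. In KO cells 10 rose and 2 fell, beside 15.6% and 18.8%.

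A list of regulators linked to glycolysis was also read, not all of which act on transcription of the 10 genes. Of 17 measured, 6 rose and 3 fell in WT cells, and 7 rose and 2 fell in KO cells. That is 35.3% and 17.6% in WT cells, beside 11.1% and 11.7% of all genes. In KO cells it is 41.2% and 11.8%, beside 13.8% and 16.9%. Txnip, which promotes the removal of glucose transporters from the cell surface, gave 9.33, 9.29 and 9.30 in WT day 0, 10.40, 10.47 and 10.53 in WT day 4, 9.46, 9.50 and 9.47 in KO day 0, and 11.86, 11.38 and 11.68 in KO day 4. Here WT day 4 array 1 was the lowest of its group and not the highest. Txnip rose by 1.16 ± 0.10 in WT cells (adjusted p = 5.66e-06) and by 2.16 ± 0.10 in KO cells (adjusted p = 4.53e-08), and the rises differed by 1.00 ± 0.14 (adjusted p = 0.00351). Its relative Arrdc4 rose by 0.61 and 1.17, with a difference of 0.57 ± 0.12 (adjusted p = 0.0215). Epas1, which encodes the hypoxia-inducible factor HIF-2 alpha, rose by 1.21 ± 0.21 in WT cells (adjusted p = 0.00105) and by 1.97 ± 0.21 in KO cells (adjusted p = 2.2e-05). Myc, as read by its probe set, fell in both genotypes (-1.02 and -0.94) and was higher in KO than in WT cells at day 4 (0.36, adjusted p = 0.00949). In all 7 of the regulators were higher and 1 lower in KO than in WT cells at day 4, and 8 and 2 without WT day 4 array 1. Among all genes 8.34% were higher and 12.4% lower, and 10.8% and 15.9% without that array.

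Epas1 was also the gene whose centred pattern over the 12 arrays was nearest to that of Aldoc, with a root mean square difference of 0.25 against an SD of 1.08 for Aldoc itself, followed by Vsir (0.25) and Vamp4 (0.28). Nearest to Slc2a3 (SD 0.94) were Clu (0.21), Epas1 (0.22) and St3gal6 (0.22). For Slc16a3 (SD 1.04) they were Nfkbiz (0.27), Dram1 (0.29) and Ier3 (0.31). These arrays are shared by all genes compared, and the likeness is a description of these 12 arrays.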

How the data were processed

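Total RNA of 12 samples was measured on 1-colour Affymetrix arrays, 3 in each of 4 groups. The deposited table holds log2 levels for 41345 probe sets. Affymetrix Expression Console was used, per the submitters' processing notes, and its version, background correction and normalization are not given in the labels used here. Of the probe sets 23521 had 1 gene symbol, 1814 several and 16010 none, and those with 1 symbol gave 22180 genes by the highest mean over 12 arrays. Several probe sets existed for 1082 genes. The table held 0 columns of other samples.

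All genes were fitted in 1 model of 4 group means, without covariates, with limma 3.58.1 in R 4.3.3, with 8 residual and 4.56 prior degrees of freedom. It was two-sided, with an adjusted p under 0.05 as the threshold, and was tested on simulated data. Those data gave each gene the same spread in all 4 groups, so they cannot show how the model behaves where the spread differs between groups. The 5 comparisons were day 4 against day 0 in each genotype, KO against WT at each day, and KO minus WT of the day 4 changes. For arrays, their number limits the precision. The 10 genes and the 7 gene lists were chosen with earlier results of these data known, so their counts are descriptions and carry no list test. From each list, up to 4 genes past the threshold with the smallest p in a comparison were named. The genes most like a member were the 3 with the smallest root mean square difference, for the 3 members of largest SD, without predicted, clone, small RNA, pseudogene or Olfr and Vmn names. Marker lists covered fibroblasts, macrophages and blood, endothelium, epithelium, skeletal muscle and pluripotent cells. The alternatives were a filter at the 25th percentile of level, quantile normalization, centring on medians, the average of probe sets, array weights, a trended robust prior, a 2-fold minimum, a replicate block, models of 2 groups alone and the omission of each array.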

Additional observations from a re-analysis of the deposited data

Results flagged for a closer look

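The day 4 change of a pair of genes differed between the genotypes by the test of the difference itself. For Slc2a3 the rise in KO cells exceeded that in WT cells by 1.51 ± 0.24 (limma, SE, 3 arrays per group, adjusted p = 0.00572), with KO day 0 the lowest and KO day 4 the highest group. For Slc16a1 the difference was -1.09 ± 0.19 (adjusted p = 0.00973), with WT day 0 the low group and the other 3 groups at 9.26 or above. Without WT day 4 array 1 the differences were 1.75 and -0.88, and both passed. Of 11 macrophage and blood markers 7 were lower in KO cells at each day, beside 3.12% of all genes at day 0 and 12.4% at day 4. The part of macrophage and blood cells in these differences was not tested.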

How the results depend on the processing

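The filter, quantile normalization, centring on medians, the average of probe sets and the trended robust prior moved no count of the 10 genes by over 1.5 times. The trended prior ended the calls of Pdk1 (rise in KO cells, adjusted p = 0.0627, and KO against WT at day 4, 0.0847) and of Slc16a3 at day 4 (0.0914). Array weights gave WT day 4 array 1 the weight 0.31. With them 2 genes fell in WT cells, and 3 were higher and 1 lower in KO cells at day 0. At day 4, 10 were higher, and the difference of changes was positive for 4. Among all genes, calls in either direction then made 24.7% in WT cells and 11.6% between genotypes at day 0. They made 21.9% between genotypes at day 4 and 8.35% for the difference of changes. The change of Pfkp in WT cells was then -0.23 against 0.05. Fits to 2 groups alone gave 7 higher and 1 lower in KO cells at day 0 and 1 higher at day 4. Among all genes they called 11.1% and 8.67% in either direction. With a 2-fold minimum 3 were higher at day 4, beside 1.49% of all genes called in either direction. The omission of 1 array gave 3 to 3 rises and 0 to 6 falls in WT cells, 3 to 4 rises in KO cells, 1 to 5 higher and 0 to 1 lower at day 0, 3 to 10 higher at day 4, and 1 to 9 positive and 1 to 1 negative differences of changes. WT day 4 array 1 gave the highest of these and arrays 2 and 3 the 3 higher at day 4. The cause was not tested. Among all genes the omissions gave calls in either direction of 17.9% to 23.3% in WT cells and 25% to 34.5% in KO cells. Between the genotypes these were 3.47% to 8.73% at day 0 and 13.3% to 26.7% at day 4. For the difference of changes they were 1.78% to 9.65%.

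Replicate numbers gave no clear pairing of the arrays. Correlations of deviations were over 0.1 in 2 of 18 same-numbered pairs and in 1 of 36 differently numbered pairs. The same-numbered ones joined WT and KO day 4 arrays 2 (0.18) and 3 (0.12), and the other WT day 4 array 3 and KO day 4 array 1 (0.12). Of 12 arrays, 5 were most like an array of their own number. With the replicate block 1 gene fell in WT cells (Slc2a1, adjusted p = 0.0456) and 2 differences of changes were positive (Aldoc, adjusted p = 0.0318, joined Slc2a3). Among all genes 22.2% were then called in WT cells and 3.61% for the difference of changes, in either direction.

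Signs turned for results that did not pass with all arrays. The turned value itself passed for Pfkp in WT cells without WT day 4 array 1 (-0.41, adjusted p = 0.00213). Over the omissions the change in WT cells ran from -0.41 to 0.32 for Pfkp, -0.0092 to 0.67 for Pdk1, -0.48 to 0.17 for Hk2, -0.28 to 0.11 for Ldha, -1.41 to 0.0652 for Slc16a3 and -0.73 to 0.0714 for Pfkl. The difference of changes ran from -0.13 to 0.52 for Hk2, -0.26 to 0.54 for Pfkl and -0.0276 to 0.36 for Ldha. KO minus WT at day 0 ran from -0.10 to 0.18 for Aldoc, and the change in KO cells from -0.0483 to 0.11 for Hk2.

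Over all genes, calls between KO and WT numbered 1242 at day 0 (2562 with array weights, 2453 in 2 groups alone, 769 to 1936 over the omissions) and 4596 at day 4 (1923 in 2 groups alone, 2946 to 5929). The difference of changes had 877 (1852 with weights, 395 to 2140). With a 2-fold minimum WT day 4 fell from 5072 to 779, KO day 4 from 6828 to 834, and the 3 others to 273, 330 and 179. Signal over background is not in the files used here, so no bound for dim probes is given.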
